A study of Drosophila melanogaster with 3 samples.

Results

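The microRNA genes near Bsh:Dam peaks in L4 neurons were taken from the gene lists of 3 biological replicates of Targeted DamID. A gene was a member when its symbol in a list started with mir-, or was let-7 or ban, at any score in any replicate. This gave 28 microRNA genes among the 3671 symbols of the 3 lists together. Some non-coding transcripts, such as CR45911-RA, count among these symbols beside their gene. Of the 28 microRNA genes, 21 were in replicate 1, 23 in replicate 2 and 22 in replicate 3. Neither let-7 nor ban was listed. Some of these genes lay on the same peak, so the 28 genes formed 23 loci, where a locus is the set of microRNA genes that shared every peak.

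Bsh (brain-specific homeobox) is a homeodomain transcription factor of lamina neurons, the first relay of the fly visual system. A fusion of Bsh to the bacterial Dam methylase was expressed in L4 (lamina neuron 4) with the driver 31C06-Gal4, held off by the temperature-sensitive repressor tubP-GAL80[ts] until the window of 46–76 hr after pupa formation (APF), and DNA was taken from laminae pooled over many pupae, which also hold cells other than L4. The samples form 1 group with no second condition, and each replicate is already set against Dam alone from the FlyORF-TaDa line, which marks open chromatin. Libraries of Dam alone were not used here, and whether the replicates share a Dam profile was not given in the sources used here. The score of a peak is the value the authors' peak caller gave it, and it ranks peaks within a list.

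A microRNA is cut from a hairpin in a longer primary transcript by Drosha with Pasha and then by Dicer-1 with Loquacious, and it is loaded into Argonaute-1, which represses messenger RNAs through GW182. Many fly microRNA hairpins lie inside introns of host genes, and others stand in clusters that come from a common transcript. The promoter of a microRNA can therefore lie far from its hairpin, and a peak within 1 kb of a hairpin may belong to a host or a neighbour. A DamID peak measures where the fusion protein methylated DNA and says nothing of whether a microRNA was expressed. For the same reason the L4 label cannot be checked by marker levels here. Of 8 loci of lamina, glial and muscle marker genes looked up, the L4 gene ap was listed with scores of 4.19, 4.01 and 3.83 in replicates 1, 2 and 3, the L1 gene svp with 4.39, 4.31 and 3.94, and bsh itself with 2.51 in replicate 1 alone. The L5 gene pdm3, the L2 gene bab2, the L3 gene erm, the glial gene repo and the muscle gene Mhc had no line in any replicate.

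Peaks numbered 2834, 2838 and 2891 in replicates 1, 2 and 3, and the median highest score per listed symbol was 3.08, 3.16 and 2.85. Read depth behind a peak is unknown from these lists. Replicate 3 had the lowest median, and it also gave the lowest score at 11 of the 15 microRNA loci that were listed in every replicate.

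A score above 2.5 in all 3 replicates, the threshold of the study's methods applied to every replicate, was reached by 14 microRNA genes at 11 loci. Of the 260 microRNA genes annotated on the 6 chromosomes with peaks, this is 5.38%, against 9.74% of all 17684 annotated genes. Listed at any score in at least 1 replicate were 10.8% of the annotated microRNA genes, against 18.0% of all annotated genes, and listed in all 3 replicates were 6.92%, against 13.2%. MicroRNA genes are short, with a median length of 92 bp against 1710 bp for all annotated genes, and the part of length in this difference was not tested. Genes for tRNAs, snoRNAs and snRNAs, with a median length of 79 bp, passed 2.5 in all 3 replicates in 42 of 591 cases (7.11%). Long non-coding and antisense RNA genes did so in 7.39% and protein-coding genes in 10.6% of cases. These shares were not tested, since microRNA genes in clusters or hosts share peaks with each other and with longer genes.

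**Figure D1:**
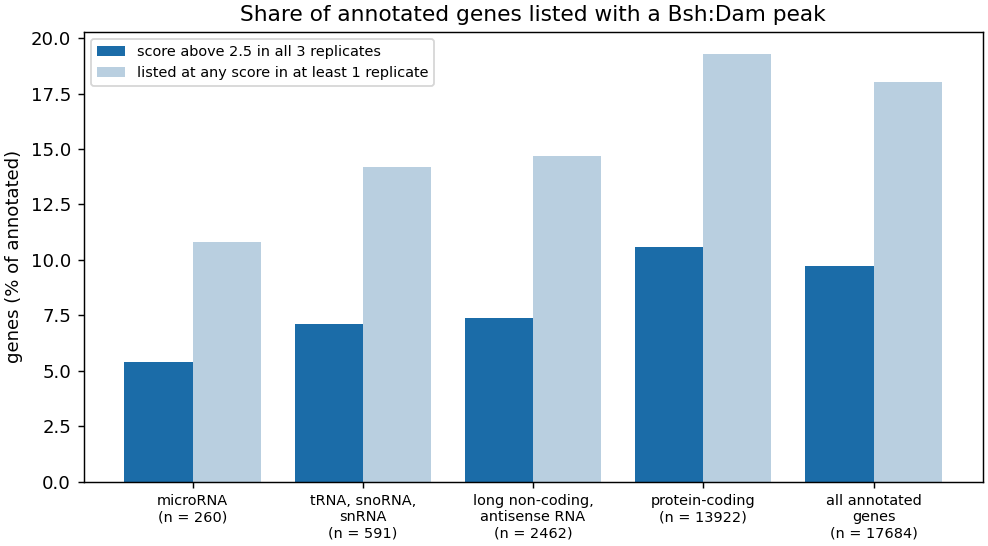
Bars give the percentage of annotated genes of each class listed with a Bsh:Dam peak, dark for a score above 2.5 in all 3 replicates and light for any score in at least 1 replicate, with n the number of annotated genes. The microRNA genes stand at 5.38% and 10.8%, the lowest pair of bars, and all annotated genes at 9.74% and 18.0%.

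Among listed genes, microRNA genes were not set low in score. In replicate 1, 76.2% of the listed microRNA genes scored above 2.5, against 77.5% of all listed symbols. The shares were 78.3% against 81.7% in replicate 2 and 63.6% against 66.7% in replicate 3. The median score of the listed microRNA genes was 3.39, 3.44 and 3.18 in replicates 1, 2 and 3, against 3.08, 3.16 and 2.85 for all listed symbols.

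The highest mean score of the group was that of mir-210, which in flies is best known from photoreceptors, whose integrity depends on it. Its peak scored 4.52, 4.37 and 4.01 in replicates 1, 2 and 3 (mean 4.30 ± 0.262, SD, n = 3). It was the highest of the group in replicates 1 and 2, while mir-954 and mir-2496 scored higher in replicate 3. In these replicates 98.3%, 95.7% and 91.5% of the listed symbols scored no higher. The peak spans chromosome X from 18126889 to 18127762 in every replicate and is 874 bp long. It does not reach the hairpin but lies within 1 kb of it, and the only other gene listed with it was CG32553, annotated today as the long non-coding RNA gene lncRNA:CR32553. It was the only locus with a score above 2.5 in every replicate and no protein-coding gene within 1 kb. Its FDR values were 0.00078, 0.002 and 0.0011. Among the 11 loci above 2.5, only mir-210 and mir-92b had an FDR of 0.001 or more in any replicate.

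A further 4 loci had a mean score above 4. The peak of mir-2496 on chromosome X, from 2010131 to 2011002, overlapped the hairpin and scored 4.29, 4.17 and 4.29 (mean 4.25 ± 0.0693, SD, n = 3), the smallest spread of any microRNA gene listed in all replicates. It was shared with east, which encodes a nuclear protein, with CG4406 (now PIG-K) and with CR45478, none of which was listed with a peak elsewhere. The peak of mir-4978 on 2R, from 14005452 to 14007300, also covered its hairpin and scored 4.30, 4.34 and 3.85 (mean 4.16 ± 0.272, SD, n = 3). It lies inside mam, which encodes Mastermind, the coactivator of Notch target genes.

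On the small chromosome 4, mir-954 shared its peak with mav, which encodes Maverick, a ligand of the TGF-β family. Scores were 3.96, 3.86 and 4.35 (mean 4.06 ± 0.259, SD, n = 3). Replicate 3 was highest here, against its general tendency, and its peak was also the shortest, from 625448 to 625917 in place of 625448 to 626524 in replicates 1 and 2. The shorter peak ended before the hairpin, which the longer peaks covered. The pair mir-281-1 and mir-281-2 shared a peak on 2R from 12171235 to 12172569 with scores of 3.99, 4.15 and 3.93 (mean 4.02 ± 0.114, SD, n = 3). Both hairpins lie inside Oda, which encodes ornithine decarboxylase antizyme, a brake on polyamine synthesis, and the antisense gene CR46194 was listed at the same scores.

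The loci of intermediate score were all inside other genes. For mir-2282, inside the Sprouty gene sty, an antagonist of receptor tyrosine kinase signalling, scores were 4.03, 4.05 and 3.62 (mean 3.90 ± 0.243, SD, n = 3). Its peak on 3L ran from 3411747 to 3414288 in replicates 1 and 3, and started at 3412449 in replicate 2, beyond the hairpin. For mir-4949, inside ATPsynC, which encodes a subunit of the mitochondrial ATP synthase, scores were 3.87, 3.80 and 3.39 (mean 3.69 ± 0.259, SD, n = 3). The same peak, on 3R from 31218295 to 31219200, was listed for RNaseP:RNA, the RNA component of RNase P. For mir-92b, inside jigr1, scores were 3.63, 3.61 and 3.81 (mean 3.68 ± 0.11, SD, n = 3), with replicate 3 highest. In flies the mir-92 microRNAs act in neuroblasts and repress their own host jigr1.

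Both mir-1000 and mir-31b overlapped their peaks in all 3 replicates. The peak of mir-1000, a microRNA that limits the vesicular glutamate transporter in fly neurons, scored 3.52, 3.76 and 3.20 (mean 3.49 ± 0.281, SD, n = 3), the widest spread of the microRNA genes listed in every replicate. It lies in msi, the gene of the neural RNA-binding protein Musashi, and was 2676 to 3655 bp long. The peak of mir-31b scored 3.39, 3.70 and 3.27 (mean 3.45 ± 0.222, SD, n = 3) and lies in rdgA, which encodes the diacylglycerol kinase of phototransduction.

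The largest cluster on one peak was that of mir-13a, mir-13b-1 and mir-2c, members of a microRNA family that represses the cell death genes reaper, hid and grim. All 3 genes had scores of 3.38, 3.44 and 3.17 (mean 3.33 ± 0.142, SD, n = 3), from a peak on 3R that starts at 15417524 in every replicate. It covered the hairpins of mir-13a and mir-2c and began just past that of mir-13b-1. The hairpins lie inside the long non-coding RNA gene CR45911, and the peak was also listed for Atx2, which encodes Ataxin-2, an RNA-binding protein needed for circadian rhythm. A score of 3 in place of 2.5 left the same 14 genes, since the 11 loci named so far all stayed above it in each replicate.

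**Figure D2:**
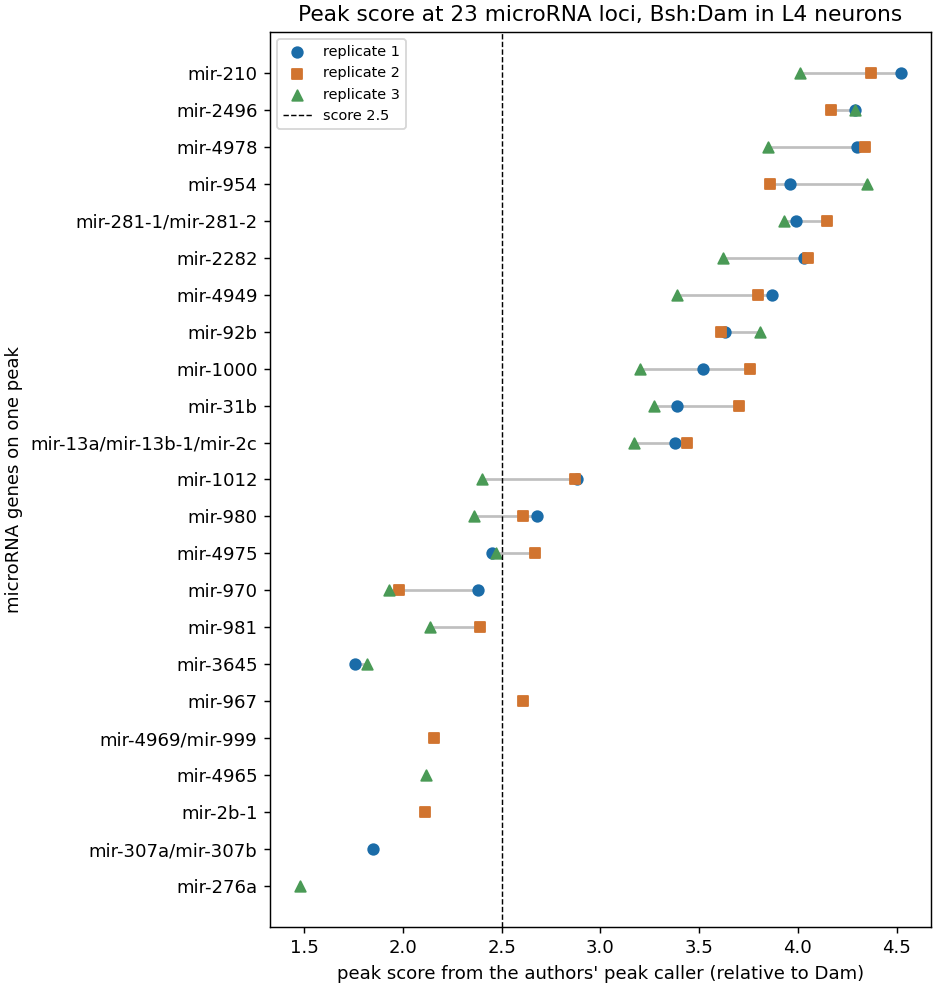
Each row is a locus of 1 or more microRNA genes on one peak, each symbol its peak score in replicate 1, 2 or 3, grey lines join the lowest and the highest score, and the dashed line marks 2.5. The upper 11 loci lie between 3.17 and 4.52 in all replicates, 4 more loci were listed in all replicates with at least 1 score below 2.5, and the lower 8 loci were listed in 1 or 2 replicates.

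In the order of mean scores, neighbouring loci were not separated by their replicates. From mir-210 down to the mir-13a cluster each locus had a range that overlapped that of the next. The first gap came after this cluster, whose lowest score of 3.17 was above the highest score of mir-1012, 2.88. A second gap lay between mir-4975 and mir-970, at 2.45 and 2.38. The SD over replicates of the 18 microRNA genes listed in all replicates had a median of 0.195, against 0.174 for all 2646 symbols listed in all replicates.

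The 4 other loci in every list were near the threshold or below it. For mir-1012, a mirtron made from a short spliced intron of Lerp (lysosomal enzyme receptor protein), scores were 2.88, 2.87 and 2.40 in replicates 1, 2 and 3. For mir-980, which acts as a memory suppressor in flies, they were 2.68, 2.61 and 2.36. For mir-4975 only replicate 2 passed, with 2.45, 2.67 and 2.47. All scores of mir-970, inside the gene of the SNARE regulator Tomosyn, were below 2.5, with 2.38, 1.98 and 1.93, and its peak also had different borders in each replicate.

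The remaining 10 microRNA genes, at 8 loci, were listed in fewer than 3 replicates. At 4 of these loci the replicate that listed the gene had a broad peak, between 3362 and 6833 bp long. The peak of mir-999 and mir-4969, inside the gene of the synaptic scaffold CASK, was 6833 bp long and scored 2.16 in replicate 2. That of mir-307a and mir-307b, inside the matrix metalloproteinase gene Mmp2, was 5394 bp long and scored 1.85 in replicate 1. In replicates 2 and 3 the nearest peak was a separate one on 2R from 9613693 to 9618362, which scored 1.90 and 1.73.

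For mir-967, inside bun, the peak of replicate 2 ran on 2L from 12458309 to 12462604 and scored 2.61. The nearest peaks of replicates 1 and 3 started at 12462816 and 12463995 and scored higher, with 3.34 and 3.12, yet lay too far away for the gene to be listed. The same was seen at mir-2b-1, inside Btk (listed as Btk29A), a tyrosine kinase gene. Its peak in replicate 2 ran from 8254713 to 8258074 on 2L with a score of 2.11, whereas replicates 1 and 3 had a peak with the same start that ended at 8256494, with scores of 2.57 and 2.32. At both loci the replicates that did not list the microRNA gene had the higher-scoring peak, with its border farther from the hairpin.

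The other members of this group had scores between 1.48 and 2.39. The gene mir-981 was listed in replicates 2 and 3 with 2.39 and 2.14, from a peak that started at 1789547 on chromosome X. In replicate 1 the peak nearest to mir-981 started at 1790172 and scored 2.48, again higher where the gene was not listed. The gene mir-3645 was listed in replicates 1 and 3 with 1.76 and 1.82. The gene mir-4965 was listed in replicate 3 alone with 2.12. The lowest score of all, 1.48 in replicate 3, was that of mir-276a, which acts in fly olfactory memory through a dopamine receptor. Its host transcript CR46006 had higher peaks elsewhere, with highest scores of 4.67, 4.59 and 4.11. In replicates 1 and 2 the peak nearest to mir-276a scored 3.47 and 3.57 but lay too far away for the gene to be listed.

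**Figure D3:**
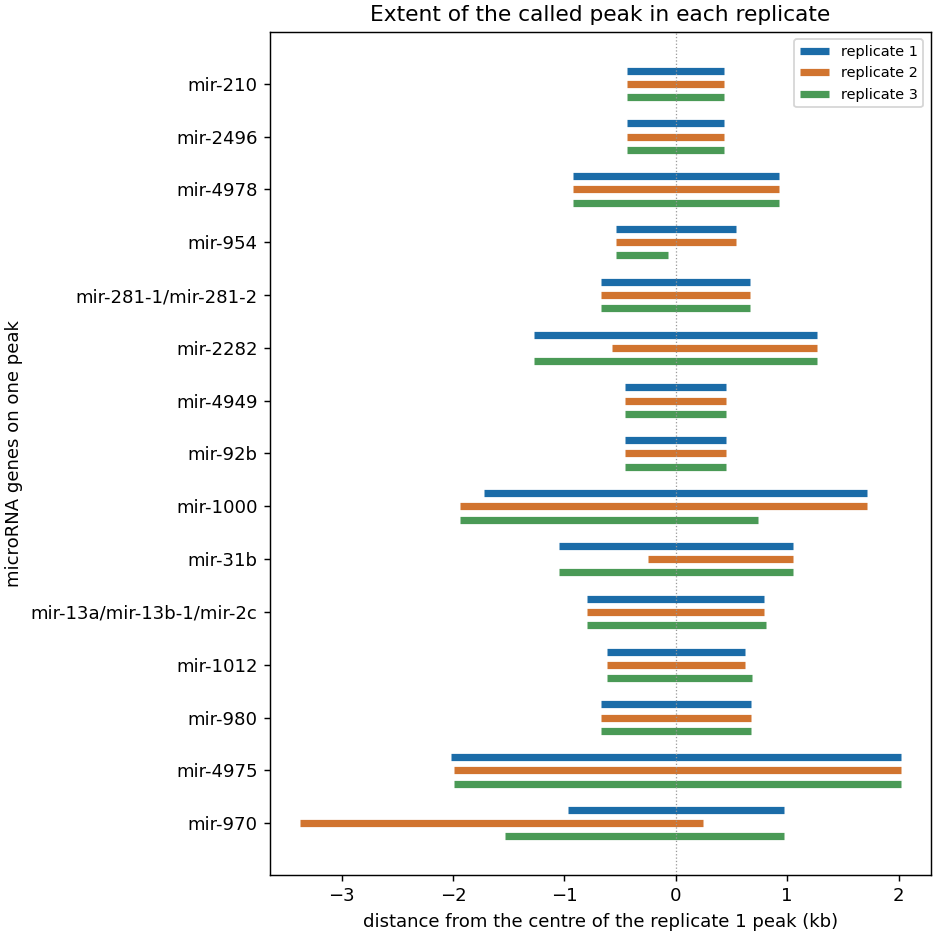
For the 15 loci listed in all 3 replicates, bars show the extent of the called peak in each replicate, in kb from the centre of the replicate 1 peak. At 7 loci the 3 bars are identical, and at mir-954, mir-2282, mir-1000, mir-31b and mir-970 a border visibly lies elsewhere in at least 1 replicate.

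Peak borders were compared in the same way. At 7 of the 15 loci listed in all replicates, the peak had the same start and end in all 3, and 6 of these were among the 11 loci above 2.5. Over the whole list, 1009 peaks of replicate 1 (35.6%) had the same borders in both other replicates. This share is of all 2834 peaks of replicate 1, whether or not the other replicates had a peak there. It is therefore not a like comparison for the 15 loci, which were required to be listed in all replicates. Of the 28 microRNA genes, 14 were overlapped by the peak in every replicate that listed them, 12 were never overlapped and only had a peak within 1 kb, and 2, mir-954 and mir-2282, were overlapped in some replicates. When an overlap with the hairpin and a score above 2.5 were both required in all 3 replicates, 6 genes at 5 loci remained, namely mir-2496, mir-4978, mir-1000, mir-31b, mir-13a and mir-2c.

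No peak was listed for a microRNA gene alone. In each replicate that listed it, every one of the 28 genes shared its peak with at least 1 other listed gene that is not a microRNA gene. Of the 28 genes, 25 lie inside another annotated gene and 21 inside a protein-coding gene, whereas mir-210, mir-2496 and mir-954 lie outside any other gene. For the 25 genes the sharing follows from the 1 kb rule, since a peak near the hairpin is at least as near to the gene around it. Only mir-210, mir-2496 and mir-954 could have had a peak listed for them alone. Over all annotated microRNA genes, those inside another gene were listed in 25 of 209 cases (12.0%) and those outside in 3 of 51 (5.88%). For scores above 2.5 in every replicate these shares became 5.26% and 5.88%. With 3 genes outside a host, these shares are only descriptive.

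For the 18 loci inside a protein-coding gene, the peak near the microRNA was compared with the host's own peaks. At 8 loci it was the highest peak of the host in every replicate that listed the microRNA, and at 10 it was not the highest in any. Among the loci listed in all replicates, the first group held mir-4978 in mam, mir-281-1 and mir-281-2 in Oda, mir-2282 in sty, mir-4949 in ATPsynC and mir-92b in jigr1. In mam there were 7, 7 and 8 peaks, and the one at mir-4978 was the highest each time. In jigr1 and ATPsynC it was the only peak, and in sty it was the only one in replicates 1 and 3. The hosts Mlc-c of mir-3645, CASK of mir-999 and Nup153 of mir-4965 also had 1 peak in each replicate that listed the microRNA. A sole peak is the highest by definition. Only mam and Oda had a further peak in every replicate, so the 8 and 10 loci are not a like comparison.

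In the second group the host had a higher peak elsewhere. Averaged over replicates, the widest difference among the loci listed in all of them was that of Lerp, whose highest peak scored 4.47, 4.48 and 4.42 in replicates 1, 2 and 3, whereas the peak at mir-1012 stayed between 2.40 and 2.88. In msi the highest peak scored 4.36, 3.85 and 4.13, above the mir-1000 peak in each replicate, and in rdgA it scored 3.98, 3.80 and 3.70, above the mir-31b peak. The long non-coding RNA gene CR45910 also holds mir-1000 and went the other way, as the mir-1000 peak was its only one. The long non-coding RNA gene CR43836 also holds mir-31b, and its highest peak scored 3.88, 4.04 and 4.04. In Tomosyn the highest peak scored 3.26, 3.69 and 3.10, while the peak at mir-970 was below 2.5 in every replicate. The mir-13a cluster, inside a non-coding host, likewise lay below the highest peak of CR45911, which scored 3.96, 3.98 and 3.62. A host can thus have a score above 2.5 in all 3 replicates from a peak that is not the one near its microRNA.

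**Figure D4:**
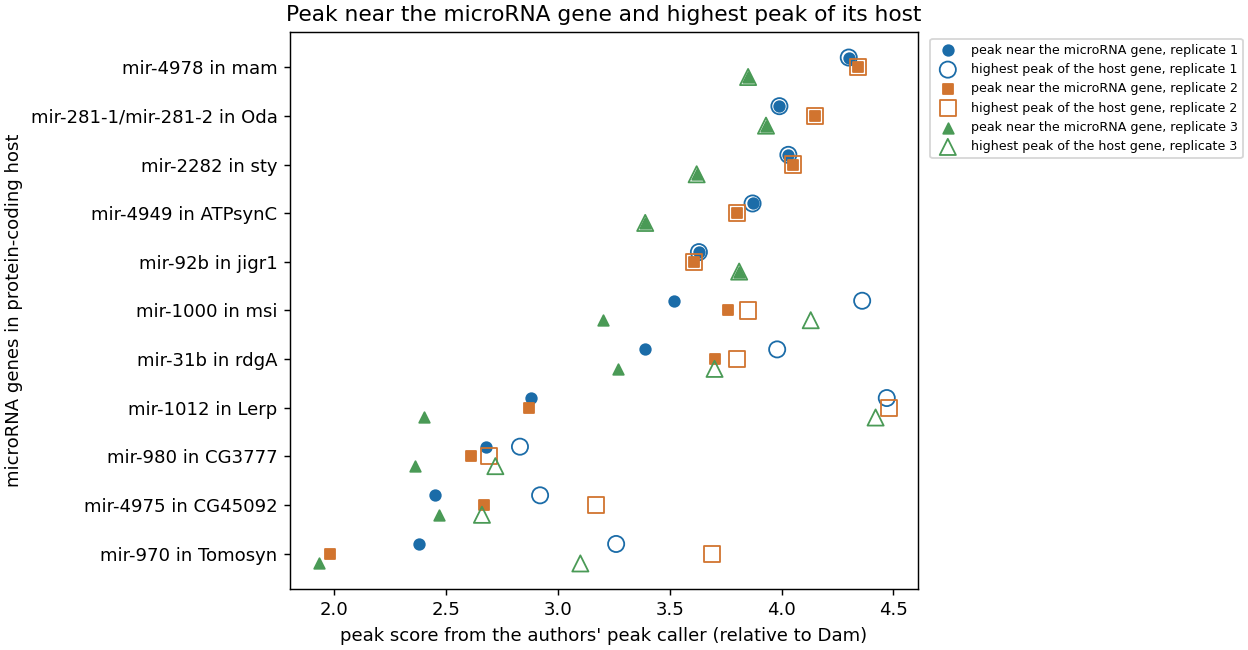
Rows are the 11 loci inside a protein-coding gene and listed in all 3 replicates, filled symbols the score of the peak near the microRNA gene and open symbols the highest score of the host gene in the same replicate. The symbols coincide in the upper 5 rows and are apart in the lower 6, where the host's highest score is above that of the microRNA peak. Where the host had no other peak, as in ATPsynC and jigr1, the symbols must coincide.

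Families that share a microRNA number were not listed as a whole, except 2 pairs of neighbouring hairpins. The mir-281 pair and the mir-307 pair were complete. Of the mir-2 genes, 2 of 5 were listed (mir-2b-1 and mir-2c), and of the mir-13 genes 2 of 3 (mir-13a and mir-13b-1). The genes mir-31a, mir-92a and mir-276b had no line, while mir-31b, mir-92b and mir-276a did. No sequence is printed, as mature microRNAs were not among the reference tables used here.

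Lists of microRNAs with known roles were looked up in the same way. Of 18 microRNAs that act in fly neurons or sense organs, 2 were listed, mir-210 and mir-276a, and only mir-210 passed 2.5 in all 3 replicates. These counts are near the 10.8% and 5.38% of all annotated microRNA genes, so nothing particular to this list is read from them. Without any line were mir-124, the pan-neuronal microRNA, mir-7 and mir-9a of sense organ development, mir-279 and mir-996, ban (bantam, a growth and survival microRNA) and mir-8. None of the let-7 complex (0 of 3), the muscle microRNAs mir-1 and mir-133 (0 of 2), the early embryonic mir-309 cluster (0 of 8), the testis clusters (0 of 8), the fat body cluster (0 of 6) or the Hox cluster microRNAs (0 of 3) was listed. With 10.8% of all annotated microRNA genes listed, less than 1 listed gene is expected in each of these short lists. The transcript let-7-C, outside the rule for members, had a line in replicate 3 with a score of 1.80. These absences say only that the authors' lists hold no line for the gene, and they do not cover a promoter that lies farther than 1 kb away. A missing line does not always mean a missing peak. The gene mir-9377 had no line, yet a peak lay within 1 kb of it in all 3 replicates.

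Among 20 protein-coding genes of the microRNA pathway, 5 had a score above 2.5 in all 3 replicates, 6 were listed in all and 13 in none. For AGO1, which encodes the Argonaute that carries microRNAs, scores were 4.09, 3.87 and 3.78 (mean 3.91 ± 0.159, SD, n = 3), and for gw, the gene of GW182, they were 2.87, 3.08 and 2.56. For lin-28, whose product blocks the maturation of let-7, they were 3.53, 3.53 and 3.90, for the translational repressor brat 3.61, 3.42 and 3.35, and for pAbp, the poly(A)-binding protein gene, 2.71, 2.75 and 2.66. The gene mei-P26 missed the threshold in replicate 1 with 2.44, 2.73 and 2.60, and Not1, the scaffold of the deadenylase complex, was listed in replicates 2 and 3 with 3.11 and 4.05. The processing genes drosha, pasha, Dcr-1 and loqs had no line in any replicate. The list is short and its share was not tested against the 9.74% of all annotated genes.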

How the data were processed

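The authors checked reads with FastQC (v0.11.9) and made log2 (Bsh:Dam/Dam) tracks with the damidseq pipeline. They called peaks per replicate with find_peaks at an FDR below 0.01, with a minimum quantile (min_quant) also set. Genes within 1 kb were listed with peaks2genes. The deposited peak lists give a score and an FDR per peak, and the deposited gene lists a symbol and a score. Bowtie2 is the aligner named in the paper's resource list. The score's formula and the genome build are not given in the sources used here.

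From these files the highest score per gene and replicate was taken (Python 3.11.15, pandas 2.3.3, numpy 2.4.6, matplotlib 3.10.9). Symbols were matched to RefSeq Release 6 plus ISO1 MT. The listed score was found among peaks within 1 kb of the gene for 99.9% of 4315, 4279 and 4389 matched lines in replicates 1, 2 and 3, and for 7.09% to 8.11% with genes shifted by 50000 bp. On this basis gene spans served to name hosts and neighbours, and no annotated position is printed.

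With 1 group there was no comparison between conditions to test. The peak lists hold no counts, so the read depth behind a peak is unknown from them. The paper gives a range of reads per sample, not a depth for each replicate. Intervals were not computed. SDs measure the spread between the biological replicates. The position lookup was tested on simulated data. Members and lists were chosen with earlier results of these data known. The text may name any member, and it gives in full the members with the highest means, those sharing a peak, those listed in fewer than 3 replicates and the lists of known microRNAs. The alternatives were other score and FDR limits, fewer replicates, each replicate left out, and overlap by position.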

Additional observations from a re-analysis of the deposited data

How the results depend on the processing

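The count of 14 microRNA genes at 11 loci with a score above 2.5 in all 3 replicates moved by over 1.5 times under 1 alternative only, overlap of the hairpin by the peak, which left 6 genes, 5 loci and 2.31% of annotated microRNA genes. The share of 5.38% rose with no threshold on the score (6.92%), a score above 2.5 in at least 2 replicates (6.15%) or in at least 1 (6.92%). It also rose without replicate 3 (6.15%), but not without replicate 1 or 2. A share defined over all 3 replicates has no spread between replicates, so these changes were not set against one. Leaving out each replicate gave 14 to 16 genes, 11 to 13 loci and 5.38% to 6.15%, and without replicate 3 the genes mir-1012 and mir-980 were added. With an FDR below 0.001, mir-210 and mir-92b were lost, since their peaks had weaker FDR values. By position, mir-9377, which the lists do not name, was added where it scored 3.07 in replicate 1, 3.09 in replicate 2 and 3.0 in replicate 3. The number of microRNA genes in replicate 3 was 14 above a score of 2.5 and 22 with no threshold. Pathway genes numbered 3 at a score above 3, and 5 to 7 when each replicate was left out. The 72 alternatives for mean scores of single microRNA genes all moved by less than 1 SD, but they could not have done otherwise. Leaving out 1 of 3 values cannot move a mean by 1 SD of those values. The peak nearest to the hairpin gave the same mean for each gene. The stability of these means is therefore not read from them. No paired analysis was possible because the samples form 1 group.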
